A study of Mus musculus with 4 samples.

Results

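The cells described here are 297 cells of 1 single-cell library of the mouse aorta, CNC AngII, that carried transcripts of Ccr2 and none of Lyve1. They were chosen by their counts in 3 steps. Barcodes passed if 500 or more genes were detected and no more than 10% of their UMIs (unique molecular identifiers, each a captured transcript) were mitochondrial. A kept cell was gated as a macrophage with at least 10 summed UMIs of C1qa, C1qb, Lyz2, Csf1r and Fcer1g, fewer than 5 of Myh11, and 0 of Pdgfra and Pecam1. Of the 1778 gated macrophages of the library, 297 had at least 1 UMI of Ccr2 and 0 of Lyve1, which is 16.7% of them (exact binomial 95% interval 14.998 to 18.5%) and 2.84% of the 10471 kept cells. The other 1481 macrophages were 1347 Lyve1-positive cells and 134 cells with neither transcript.

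The study compared cells of the ascending aorta that descend from the second heart field (SHF) with cells of other origins in their response to angiotensin II (AngII), a vasoconstrictor peptide. All animals were male mice of the strain Mef2c-mTmG, a lineage reporter line, and live cells were sorted by lineage before capture with a 10x 3′ kit. The 3 libraries used were SHF baseline, SHF AngII and CNC AngII, where AngII stands for 3 days of infusion. CNC is not spelled out in the labels, the age and number of the pooled animals are not given there, and the CNC baseline library was not analysed here. There was therefore 1 library per group, no test was made, and the intervals below cover counting error only.

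Ccr2 encodes the receptor for the chemokine Ccl2, through which monocytes leave the bone marrow and enter tissue. In arteries, Ccr2-bearing myeloid cells are distinguished from resident adventitial macrophages, which carry the hyaluronan receptor Lyve1, take up debris through scavenger receptors and largely renew themselves in place. Monocyte-derived cells in tissue often load peptides onto MHC class II molecules, which CD4 T cells read, and they can secrete interleukin 1 beta.

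Ccr2 counts ranged from 1 to 24 UMIs per cell with a median of 5, and 40 cells had exactly 1. Over the 297 cells, Ccr2 stood at 562 CPM (counts of the gene per 1000000 UMIs of the group, exact Poisson interval 535 to 590), against 43.6 CPM in the Lyve1-positive cells. As a measure of free RNA, a Ccr2 UMI was found in 0.290% of 6210 smooth muscle cells and 0.252% of 794 fibroblasts of the same library, gated by their own markers, at median depths of 13405.5 and 12204.5 UMIs. The Ccr2-positive cells had a median of 9562 UMIs, the Lyve1-positive cells 11740 and the cells with neither transcript 7949. Lyz2, the macrophage lysozyme, was at 9717 CPM in the Ccr2-positive cells and 10639 CPM in the other macrophages. Fcer1g, a signalling subunit of Fc receptors, was at 2599 and 3052 CPM. These genes and the C1q genes C1qa and C1qb chose the cells and are given as a description.

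Fixed marker lists were used to check a name as monocyte-derived cells, and they bore it out only in part. Of the 5 classical monocyte genes outside the gate with a mean of at least 20 CPM, 4 were at least 2-fold higher than in the other macrophages and 1 lower, with a median log2 ratio (of CPM + 1) of 1.50. Over all 5072 genes at this level, 190 were at least 2-fold higher (3.75%) and 280 at least 2-fold lower (5.52%), with a median of -0.08. Plac8 was at 87.7 CPM against 32.7 CPM in the other macrophages, Ms4a4c at 114 against 22.7 CPM, Ifitm6 at 61.2 against 20.995 CPM and Chil3, a chitinase-like protein, at 89.7 against 8.19 CPM. In the cells with neither transcript Plac8 was at 82.5 CPM, and against them 1 of 6 genes of the list was at least 2-fold higher and 0 lower, with a median of 0.98. Over all 5030 genes of that comparison, 1.35% were at least 2-fold higher and 2.72% lower, with a median of -0.02. Ly6c2, the surface antigen of classical monocytes, was above the other macrophages but low: it had 17 UMIs in all and was found in 3.37% of the cells, at 5.84 CPM (3.40 to 9.36) against 1.56 CPM in the other macrophages and 7.02 CPM in the cells with neither transcript. Hp (haptoglobin) was at 13.1 against 1.61 CPM, and Fcnb at 0. The monocyte gene F13a1, a subunit of coagulation factor XIII, was lower, at 628 against 1779 CPM. Lists of conventional dendritic cells (cDC) were higher as well. The list of cDC2 or monocyte-derived dendritic cells had 3 of 4 genes at least 2-fold higher and 1 lower, at a median of 1.50. Of the 3 higher genes, Ccl17 rested on few cells, so this median does too in part. Ccl17 was at 304 CPM in the cells with 1 Ccr2 UMI and 1.17 CPM in those with 2 or more. It was found in 4.69% of the cells of sub-cluster 3, described below, and in 0% of the other sub-clusters. Against the cells with neither transcript the list had 3 of 5 higher and 1 lower, at 1.35. The lower gene was Ccl17, at 221 CPM in the cells with neither transcript. The cDC1 list had 2 of 4 higher and 0 lower (0.68), and 2 of 4 and 0 against those cells (1.12). The non-classical monocyte list had 2 of 3 higher and 0 lower (1.14), and 0 of 3 higher against those cells (0.39). The complement subunit C1qc, which the gate did not use although it used its partners C1qa and C1qb, had a UMI in 88.9% of the cells. Of 7 general macrophage genes outside the gate, 0 were at least 2-fold higher and 3 lower than in the other macrophages, with a median of -0.73. Against the cells with neither transcript 0 were at least 2-fold higher and 0 lower (-0.69). The cells are therefore called Ccr2-positive cells here, without a lineage name. Of the neutrophil markers S100a9, Ly6g, Retnlg, Stfa2l1 and Camp were at 0, as were the T cell markers Cd3d, Cd3e, Cd3g and Trac, the NK cell markers Nkg7 and Ncr1, and the B cell markers Cd79a and Ms4a1. Other markers of these lists were found. The whole neutrophil list summed to 29.2 CPM against 13.3 CPM in the other macrophages, and the T cell list to 13.7 against 1.45 CPM. The NK cell list summed to 6.53 against 0.557 CPM and the B cell list to 61.9 against 60.1 CPM. Smooth muscle RNA was present at a low level: Acta2, smooth muscle actin, was at 275 CPM in the Ccr2-positive and 287 CPM in the other macrophages, and the 9 smooth muscle markers outside the gate summed to 539 and 569 CPM. The 9 fibroblast markers outside the gate summed to 537 CPM in the Ccr2-positive cells, 372 CPM in the Lyve1-positive cells and 1433 CPM in the cells with neither transcript, and the part of these RNAs in the results was not tested. Scrublet marked 3 of the 297 cells as doublets.

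MHC class II genes were among the highest ratios of Ccr2-positive over other macrophages: of the 5 highest genes with a mean of at least 50 CPM, 4 were H2-Eb1, H2-Aa, H2-Ab1 and Cd74, and Tnip3 ranked second. H2-Aa, H2-Ab1 and H2-Eb1 encode the chains of the classical class II molecules I-A and I-E, Cd74 the invariant chain that escorts them, and H2-DMa and H2-DMb1 the exchange factor that helps load peptide. Promoter sequence is shown for class II genes on chromosome 17. Of these, H2-Aa, H2-Eb1 and H2-DMb1 were at least 2-fold higher, and H2-DMb2, H2-Oa and H2-Ob, which lay under a mean of 20 CPM, stand beside them for comparison of the letters. RefSeq promoter entries (GRCm38.p6) were found for 9 of the 14 genes of the antigen presentation list. The motif TGATTGG, the inverted CCAAT box known as the Y box of class II promoters, was searched on both strands in the 250 bases before each start and is set in capitals. It was chosen after these sequences had been seen. Each line gives 100 bases, 5′ to 3′ on the gene's own strand.
H2-Aa: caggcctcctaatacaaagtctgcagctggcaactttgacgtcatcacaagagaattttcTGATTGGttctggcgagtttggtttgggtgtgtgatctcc
H2-Eb1: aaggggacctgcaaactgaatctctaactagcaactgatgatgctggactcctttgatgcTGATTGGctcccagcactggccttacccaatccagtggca
H2-DMb1: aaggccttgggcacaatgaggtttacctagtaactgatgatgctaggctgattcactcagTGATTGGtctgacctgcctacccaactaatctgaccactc
H2-DMb2: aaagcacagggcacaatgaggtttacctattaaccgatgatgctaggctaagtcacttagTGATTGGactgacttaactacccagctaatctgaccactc
H2-Oa: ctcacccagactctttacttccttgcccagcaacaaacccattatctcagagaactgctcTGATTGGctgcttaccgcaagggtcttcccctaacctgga
H2-Ob: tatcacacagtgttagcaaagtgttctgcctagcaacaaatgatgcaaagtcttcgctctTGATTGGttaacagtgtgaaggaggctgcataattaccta

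The windows lie at chr17:34287834-34287933 on the minus strand for H2-Aa, and on the plus strand at chr17:34305746-34305845 for H2-Eb1, chr17:34153068-34153167 for H2-DMb1, chr17:34145097-34145196 for H2-DMb2, chr17:34092274-34092373 for H2-Oa and chr17:34238786-34238885 for H2-Ob. The motif began 50 bases before the annotated start in H2-Aa, 61 in H2-Eb1, 63 in H2-DMb1, 92 in H2-DMb2, 45 in H2-Oa and 59 in H2-Ob, each time on the sense strand. These letters were not in the windows of H2-DMa, Ctss and Cd80. The motif was present in 2375 of all 32851 promoter windows of the same length (7.23%). It is a match of letters and no measurement of binding.

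The levels of the class II genes were as follows. H2-Eb1 was at 2369 CPM in the Ccr2-positive cells, 61.7 CPM in the Lyve1-positive cells and 495 CPM in the cells with neither transcript. H2-Aa was at 2222, 66.4 and 409 CPM in the same order. H2-Ab1 was at 2470, 75.7 and 506 CPM. The 3 genes had the same order of groups, with the cells with neither transcript in between. Over all the other macrophages, the log2 ratio was 4.72 for H2-Eb1 (counting interval 4.65 to 4.81), 4.64 for H2-Aa (4.58 to 4.74) and 4.57 for H2-Ab1 (4.51 to 4.66). The ratios are of CPM + 1, whereas their intervals are taken from the counts without the added 1, so that a low gene can lie outside its interval. Cd74 was at 8592 CPM against 390 CPM, a log2 ratio of 4.46 (4.42 to 4.50), and a microRNA gene, Mir5107, overlaps its exons on the same strand. H2-DMa was at 367 against 48.3 CPM and H2-DMb1 at 338 against 46.4 CPM. H2-DMb2, a second beta chain of the exchange factor, was at 22.7 against 0.501 CPM, and Ciita, the master regulator of class II transcription, at 19.9 against 0.613 CPM. H2-Oa, a chain of the DM inhibitor, was at 5.50 against 0.167 CPM, and its partner H2-Ob at 2.75 against 0.668 CPM. Other genes of antigen presentation were close between the groups: Cd86, a costimulatory ligand of T cells, was at 95.9 and 93.9 CPM, and Ctss, the protease that trims the invariant chain, at 1386 and 997 CPM. Cd40, another costimulatory receptor, was lower at 20.6 against 41.8 CPM. Among the 9 of the 14 genes of this list with a mean of at least 20 CPM, 6 were at least 2-fold higher and 0 at least 2-fold lower, with a median log2 ratio of 2.90.

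**Figure D1:**
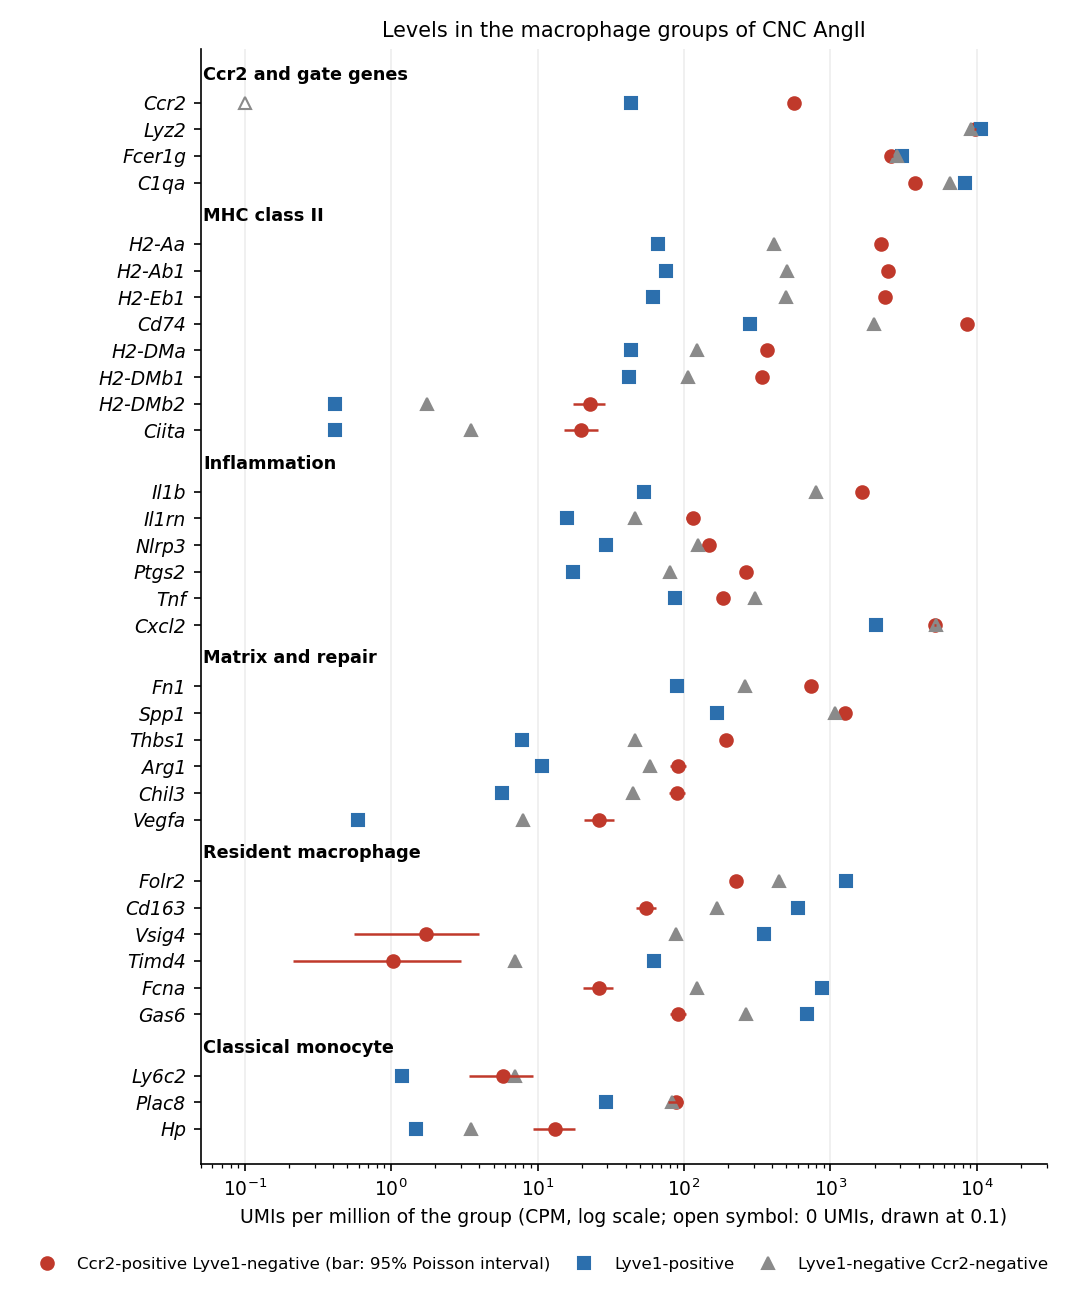
Levels of genes by role in the Ccr2-positive cells (red circles, bars 95% Poisson intervals), Lyve1-positive cells (blue squares) and cells with neither transcript (grey triangles), in CPM on a log axis; 1 library, no replicates. H2-Eb1 stands at 2369, 61.7 and 495 CPM, and Folr2 in the opposite order at 227, 1281 and 447 CPM.

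Genes of the cytokine and inflammasome list, and 3 other named genes of inflammatory signalling, are given next. Il1b, which encodes interleukin 1 beta, was at 1641 CPM in the Ccr2-positive cells, 53.0 CPM in the Lyve1-positive cells and 800 CPM in the cells with neither transcript. The log2 ratio over the other macrophages was 4.02 (3.95 to 4.11). Il1rn, the antagonist of the same receptor, was at 114 against 17.8 CPM. Nlrp3, the sensor of the inflammasome that activates interleukin 1 beta, was at 147 against 35.5 CPM (125 CPM in the cells with neither transcript), whereas its partners Pycard (347 and 359 CPM) and Casp1 (55.0 and 75.5 CPM) were not higher. Ptgs2, the inducible cyclooxygenase, was at 264 against 21.5 CPM, a log2 ratio of 3.56 (3.44 to 3.80). It was also detected in 30.6% of the smooth muscle cells. Ltb4r1, the receptor for leukotriene B4, was at 122 against 4.62 CPM and Tnip3, an inhibitor of NF-kappa-B signalling, at 212 against 7.24 CPM. Traf1, an adaptor of TNF receptors, was at 108 against 8.52 CPM and Osm, the cytokine oncostatin M, at 155 against 49.7 CPM. Tnf was at 186 against 101 CPM, but below the 307 CPM of the cells with neither transcript. Nos2, the inducible nitric oxide synthase, had 0 UMIs. In the cytokine list 5 of 13 genes were at least 2-fold higher and 0 lower, with a median log2 ratio of 0.69. Against the cells with neither transcript, 3 of 14 were higher and 0 lower, with a median of 0.20, beside 1.35% higher and 2.72% lower of all genes.

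Chemokine genes differed in both directions. Of 14 ligands, 3 were at least 2-fold higher and 3 at least 2-fold lower, with a median of 0.02. The neutrophil attractants Cxcl1 and Cxcl2 were at 342 against 133 CPM and 5173 against 2261 CPM. Cxcl10, a ligand of Cxcr3, was at 256 against 123 CPM. The cells with neither transcript had Cxcl1 at 328 CPM, Cxcl2 at 5242 CPM and Cxcl10 at 463 CPM. Against them 0 of 14 ligands were at least 2-fold higher and 3 lower, with a median of -0.73. Of all 5030 genes of that comparison 1.35% were higher and 2.72% lower, so the count of 0 higher ligands is near the share over all genes. Ccl8, Ccl12 and Ccl24 were lower, at 309 against 2339 CPM, 489 against 1148 CPM and 12.4 against 95.1 CPM. Ccl2, the ligand of Ccr2 itself, was at 1139 and 1140 CPM. Among receptors, Cxcr4, which responds to Cxcl12, was at 53.6 against 13.6 CPM and the fractalkine receptor Cx3cr1 at 158 against 71.1 CPM. In the cells with neither transcript they were at 49.1 and 204 CPM. Against those cells 0 of 7 receptors were at least 2-fold higher and 1 lower, beside the same shares of all genes, with a median of -0.31. The interferon-stimulated genes had 1 of 14 higher and 3 lower, with Isg15 at 148 and 159 CPM.

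Genes of matrix and repair made up the list with the second highest median among the functional lists. Of 14 genes, 11 were at least 2-fold higher and 2 lower, with a median log2 ratio of 1.64. Fn1 (fibronectin) was at 734 against 100.3 CPM, and Thbs1, thrombospondin 1, at 195 against 10.2 CPM. Smooth muscle cells had a UMI of Fn1 in 96.7% and of Thbs1 in 18.1% of cells, and their part in these levels was not tested. Spp1, osteopontin, was at 1249 CPM in the Ccr2-positive cells, 169 CPM in the Lyve1-positive cells and 1079 CPM in the cells with neither transcript, and an overlapping gene model, Gm42793, shares its exons. Arg1 (arginase 1) was at 91.1 against 13.7 CPM, and Chil3, given above, belongs to this list as well. Vegfa, the endothelial growth factor, was at 26.5 against 1.06 CPM. The exceptions were Igf1, insulin-like growth factor 1, at 34.7 against 258 CPM, and the protease inhibitor Timp2 at 377 against 1560 CPM.

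**Figure D2:**
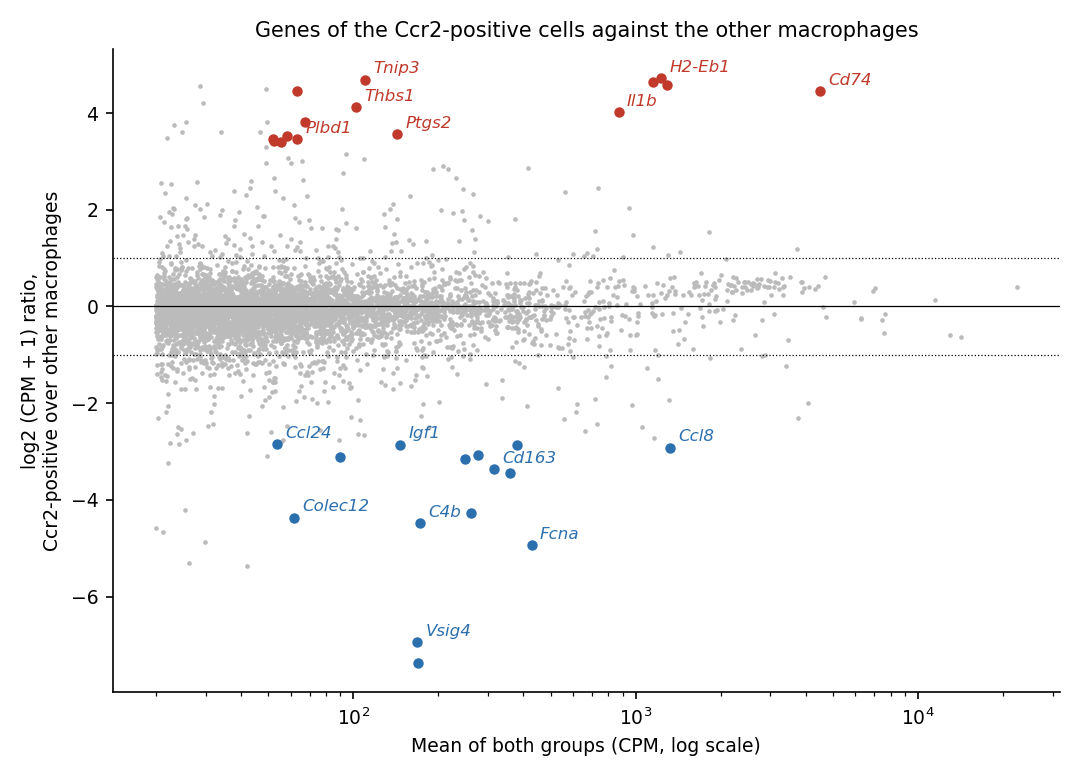
Log2 ratio of Ccr2-positive over other macrophages (vertical axis) against the mean level in CPM (log axis) for 5072 genes, with the 15 highest and 15 lowest by the naming rule in red and blue and dotted lines at 2-fold. H2-Eb1, Cd74 and Il1b are at the top with ratios of 4.72, 4.46 and 4.02, and Vsig4 near the bottom at -6.95.

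Genes of resident macrophages were lower. Of 12 resident markers outside the gate, 11 were at least 2-fold lower and 0 higher, with a median log2 ratio of -3.11. Since Lyve1 itself defined the groups, this is the other side of the choice of cells. Folr2, the folate receptor beta, was at 227 CPM in the Ccr2-positive cells, 1281 CPM in the Lyve1-positive cells and 447 CPM in the cells with neither transcript. Cd163, the haemoglobin scavenger receptor, was at 55.0, 602 and 168 CPM. Vsig4, a complement receptor, had 5 UMIs, at 1.72 CPM against 335 CPM in all other macrophages. The lectin Cd209f had 3 UMIs, a log2 ratio of -7.38 with a wide counting interval of -10.63 to -6.80. Fcna (ficolin A) was at 26.1 against 831 CPM, C4b (complement C4) at 13.7 against 330.1 CPM and Colec12, a scavenger receptor, at 4.81 against 119 CPM. Gas6, which bridges dying cells to the receptor Mertk, was at 91.4 against 668 CPM and Mertk at 21.3 against 46.4 CPM. In the efferocytosis list 8 of 14 genes were at least 2-fold lower and 0 higher, with a median of -1.07.

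Iron and heme genes were lower as well. Hmox1, heme oxygenase 1, was at 307 against 2012 CPM and Blvrb (biliverdin reductase B) at 251 against 811 CPM. Slc40a1, the iron exporter ferroportin, had 1 UMI in the Ccr2-positive cells and was at 52.1 CPM in the others, a log2 ratio of -5.30 with a counting interval of -12.55 to -4.76. Of 9 genes 4 were at least 2-fold lower and 0 higher. Lysosomal genes differed less: Ctsb and Ctsd, the cathepsins B and D, were at 1920.1 against 3848 CPM and 1187 against 2470 CPM. Lpl, lipoprotein lipase, ran the other way at 265 against 53.6 CPM. Ednrb (the endothelin B receptor) was at 24.7 against 499 CPM, Ltc4s (leukotriene C4 synthase) at 59.5 against 657 CPM and Hpgd, which degrades prostaglandins, at 17.9 against 162 CPM.

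Some transcription factors and cytoskeletal genes also differed. Batf3, a factor of dendritic cell development, was at 36.8 against 6.40 CPM, Runx3 at 73.2 against 12.6 CPM, Nfil3 at 89.0 against 16.2 CPM and Bhlhe40 at 69.8 against 13.4 CPM. Maf, a factor of macrophage identity, was lower at 237 against 567 CPM, and the myeloid master regulator Spi1 was at 485 and 534 CPM. In this list 7 of 19 were at least 2-fold higher and 1 lower, with a median of 0.14. Against the cells with neither transcript, 1 of 19 was higher and 0 lower, with a median of -0.05, and Runx3 was at 61.4 CPM there. Of all genes of that comparison, 1.35% were higher and 2.72% lower. The calcium-binding S100 genes S100a4, S100a6 and S100a11 were at 2694 against 931 CPM, 1970 against 899.6 CPM and 583 against 165 CPM. Napsa, an aspartic protease, was at 95.2 against 3.23 CPM and Lsp1, a leukocyte actin-binding protein, at 399 against 62.8 CPM. Kcnn4, a calcium-activated potassium channel, was at 102 against 8.74 CPM, and Bcl2a1d, a survival gene with near-identical copies that can share its reads, at 96.9 against 8.08 CPM. Pmp22, a membrane protein, was lower at 58.1 against 495 CPM. Clec4e, the C-type lectin Mincle, was at 195 against 22.8 CPM and the lipopolysaccharide co-receptor Cd14 at 1078 against 362 CPM, with 99.1 and 980 CPM in the cells with neither transcript. The S100, annexin and cytoskeleton list had 8 of 19 genes at least 2-fold higher and 0 lower, and 5 of 19 higher and 0 lower against the cells with neither transcript. The angiotensin receptors Agtr1a, Agtr1b and Agtr2 had 0 UMIs among 2909212, a depth at which 3 UMIs stand for 1.03 CPM.

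**Figure D3:**
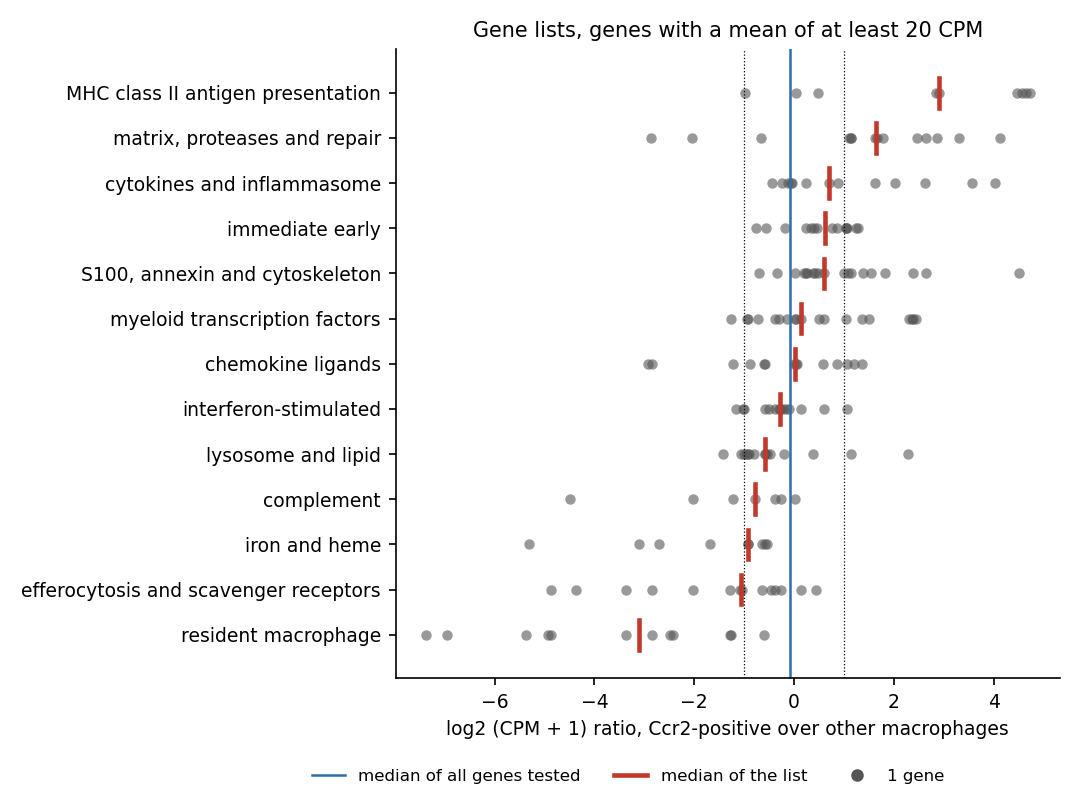
Log2 ratio of Ccr2-positive over other macrophages for each gene (grey points) of 13 gene lists, with the list median in red, the median of all 5072 genes in blue and dotted lines at 2-fold. The MHC class II list has the highest median, 2.90, and the resident macrophage list the lowest, -3.11.

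The other macrophages were mostly Lyve1-positive, so the 134 cells with neither transcript were also compared by themselves. Against them, 68 of 5030 genes were at least 2-fold higher (1.35%) and 137 lower (2.72%). Of these, 51 of the 68 higher genes were also among the 201 higher genes against the Lyve1-positive cells (3.96% of 5072), and 66 of the 137 lower genes among the 301 lower ones (5.93%). Both comparisons share the Ccr2-positive cells. The class II list had 6 of 9 genes higher, at a median of 1.65. H2-Aa had a log2 ratio of 2.44 (2.31 to 2.58) and Tnip3 of 2.43 (2.02 to 2.93). Clec4b1, a C-type lectin, was at 96.2 against 17.5 CPM and Plbd1, a phospholipase B-like gene, at 117 against 25.4 CPM. Retnla, a resistin-like molecule of alternatively activated macrophages, was at 223 against 49.1 CPM. By contrast the matrix list had a median of 0.23, with 3 of 17 genes higher and 4 lower, and Spp1 a log2 ratio of 0.21 (0.12 to 0.31). Il1b had a ratio of 1.03 (0.93 to 1.14). The immediate early genes, which respond to stimulation and to tissue dissociation, had 5 of 14 higher against all other macrophages at a median of 0.61, and a median of -0.02 against the cells with neither transcript. Genes lower in both comparisons included Hpgd, C4b, Ccl24 and Igf1, with log2 ratios of -3.37, -3.19, -3.15 and -2.44 against the cells with neither transcript. Gdf15, a stress cytokine, was at 90.4 against 389 CPM. Ctla2a was at 20.6 against 101 CPM, and its exons overlap the gene models Gm49391 and Gm49393.

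Levels near the Ccr2 threshold were graded for some genes and not for others. Cd74 was at 1990 CPM in the Lyve1-negative cells with 0 Ccr2 UMIs, 5119 CPM with 1 UMI and 9069 CPM with 2 or more. H2-Aa was at 409, 1437 and 2329 CPM in the same cells. Il1b was at 800, 1872 and 1609 CPM, and Spp1 at 1079, 1181 and 1259 CPM. Thbs1 was at 46.5, 48.4 and 215 CPM, so that the cells with 1 UMI stood with those without. A cell with 0 Ccr2 UMIs can still express the gene below detection. Among Lyve1-positive cells, the 168 with a Ccr2 UMI had H2-Aa at 425 CPM and Il1b at 209 CPM, and the 1179 without had 14.4 and 30.3 CPM.

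The Ccr2-positive cells were not uniform. The summed class II genes H2-Aa, H2-Ab1 and H2-Eb1 ranged from 0 to 490 UMIs per 10000 per cell, with quartiles of 0 and 144 around a median of 14.3. Spp1 ranged from 0 to 266 per 10000 with a median of 1.96. After each cell was thinned to 3000 UMIs, which left 296 cells, 56.8% (50.9 to 62.5%) had at least 2 class II UMIs. Spp1 was detected in 33.3% (26.3 to 41.0%) of these cells and in 71.9% of the rest. Il1b had the opposite pattern, at 60.1% (52.3 to 67.6%) and 28.9%, and Folr2 followed Spp1, at 28.6% and 52.3%. Fn1 was about equal, at 63.7% and 62.5%. Cd209a, a lectin of monocyte-derived dendritic cells, was found in 16 of the 296 cells, and each of them had class II transcripts. These shares describe cells of 1 library and carry no test.

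**Figure D4:**
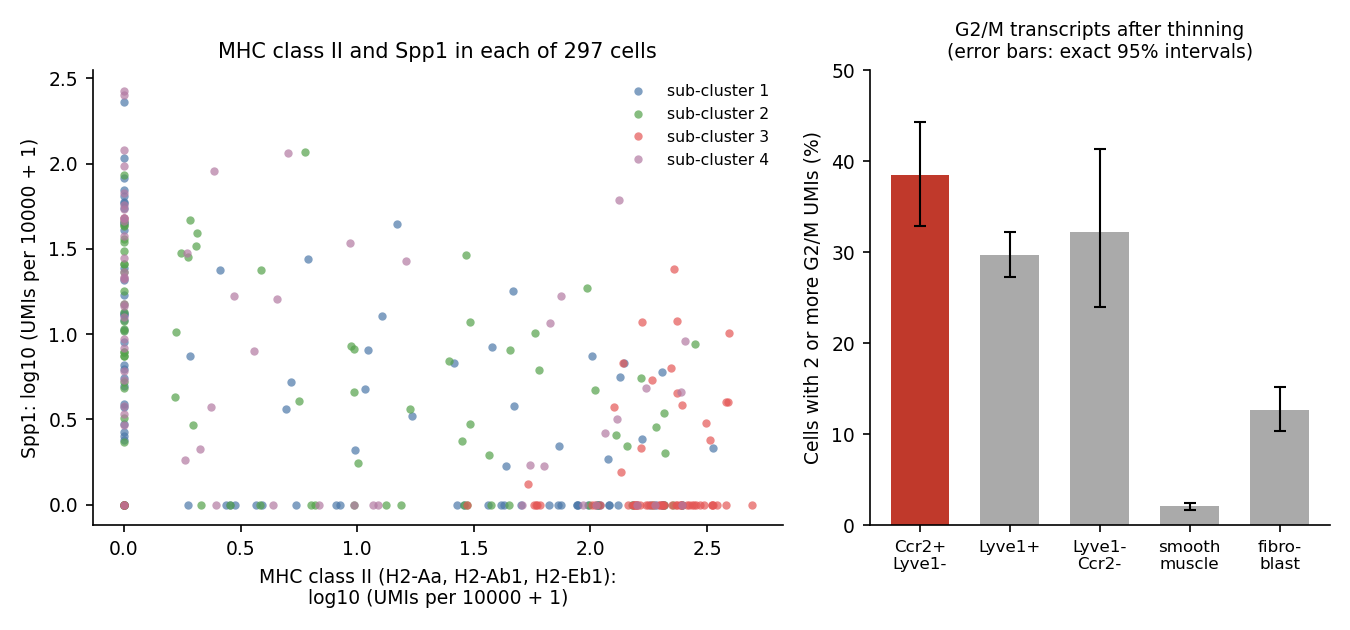
Left, Spp1 against summed MHC class II UMIs per 10000 in each of the 297 Ccr2-positive cells (both as log10 of the value + 1), coloured by sub-cluster. Right, the share of cells with at least 2 UMIs of the G2/M list after thinning to 3000 UMIs, with exact 95% intervals: 38.5% of Ccr2-positive cells against 2.08% of smooth muscle cells.

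Clustering the 297 cells by themselves gave 4 sub-clusters. They are described by their leading genes and carry no cell type name, and since the same genes formed them, their levels are not a test. Sub-cluster 1 (92 cells) led with Ccl8, Hmox1, Gas6, Npl and Tmem86a. Its Apoe level was 10634 CPM and its Folr2 level 391 CPM, against 340 and 66.7 CPM in sub-cluster 3. Its Il1b level was 44.3 CPM, against 1465 to 3711 CPM in the other 3. Sub-cluster 2 (81 cells) led with the mitotic genes Ube2c, Cenpf, Prc1, Plk1 and Hmmr, and every one of its cells had at least 2 UMIs of the G2/M list. Its class II level was near that of sub-clusters 1 and 4, with H2-Aa at 1260 CPM.

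Sub-cluster 3 (64 cells) held the class II maximum. H2-Aa was at 5853 CPM there, against 1102 to 1493 CPM in the other 3, and Cd74 at 20098 CPM. It led with Cd209a (159 against 3.87 CPM in the other members), Aebp1, Serpinh1, Sparc and Col1a2. Cd209a was detected in 26.6% of its cells and 2.58% of the other members. The other 4 were closer in detection: Aebp1 in 12.5% and 6.87%, Serpinh1 in 17.2% and 11.2%, Sparc in 46.9% and 38.6%, and Col1a2 in 34.4% and 26.6%. Sub-cluster 3 also had the highest Il1b, at 3711 CPM, and the lowest Spp1 and C1qc, at 195 and 815 CPM. Its leading genes mix dendritic cell genes with collagen genes of fibroblasts, and it held the 3 cells marked as doublets. Of its cells 4.69% had at least 3 UMIs of Dcn, Col1a1, Col1a2 and Col3a1, against 6.40% of all 297 cells and 14.7% of the other macrophages. Flt3, the growth factor receptor of conventional dendritic cells, was at 12.0 CPM in it, and Klrd1, a lectin found in some dendritic cells, at 56.4 CPM.

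Sub-cluster 4 (60 cells) led with Il10, Gdf15, Dusp2, Pdpn and Cxcl1. Il10, the anti-inflammatory cytokine, was at 113 CPM there against 21.9 CPM in the other members. Spp1 was highest in it, at 2537 CPM, as were Tnf at 374 CPM and Cxcl2 at 9602 CPM. Il1b at 2188 CPM and Ptgs2 at 401 CPM came second after sub-cluster 3. High Il1b was found both with high class II and low Spp1 (sub-cluster 3) and with low class II and high Spp1 (sub-cluster 4).

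**Figure D5:**
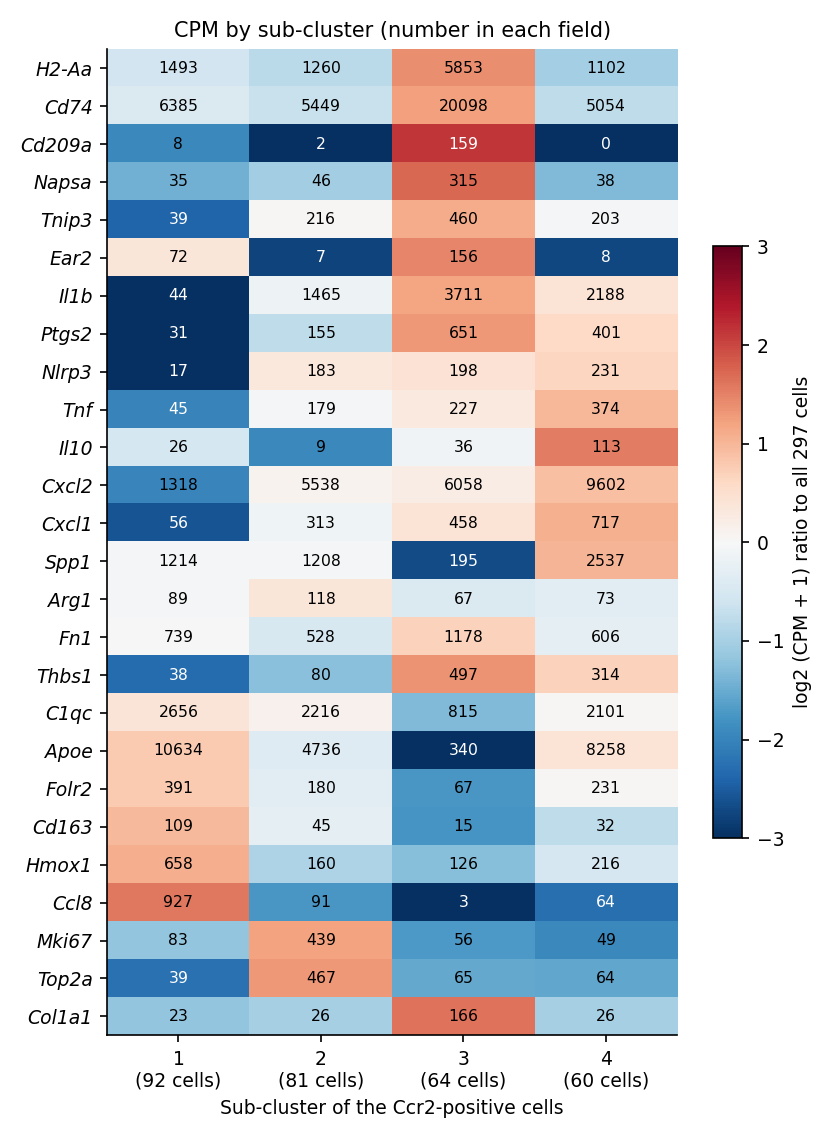
CPM of 26 genes in the 4 sub-clusters of the Ccr2-positive cells (number in each field), coloured by the log2 ratio to all 297 cells. H2-Aa and Cd209a stand highest in sub-cluster 3 (5853 and 159 CPM), Spp1 and Il10 in sub-cluster 4 (2537 and 113 CPM), Ccl8 in sub-cluster 1 (927 CPM) and Top2a in sub-cluster 2 (467 CPM).

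Cell cycle transcripts were found in many Ccr2-positive cells. At 3000 UMIs per cell, 38.5% (32.9 to 44.3%) had at least 2 UMIs of the G2/M list, compared with 29.7% (27.3 to 32.2%) of the Lyve1-positive cells and 32.2% (24.02 to 41.3%) of those with neither transcript. Smooth muscle cells stood at 2.08% and fibroblasts at 12.7%. Without thinning the Ccr2-positive cells were at 48.8% and the Lyve1-positive cells at 47.2%. These intervals count cells of the same single library, so they do not test a difference between the Ccr2-positive and Lyve1-positive cells. Of the 12 G2/M genes 0 were at least 2-fold higher or lower than in the other macrophages, with a median log2 ratio of 0.40. Over all genes 3.75% were higher and 5.52% lower, so the count of 0 is near the share over all genes. Mki67, a marker of cycling cells, was found in 93.8% of sub-cluster 2 and in 18.8 to 30.0% of the other 3.

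The same rule found few cells in the other libraries. In SHF AngII, 7 of 15 gated macrophages among 9490 kept cells were Ccr2-positive and Lyve1-negative, and in SHF baseline 2 of 6 among 8579. Cells were sorted by lineage reporter, so these counts describe the sorted libraries and not the aortic wall. The 7 cells of SHF AngII had H2-Aa at 2399 CPM (2009 to 2844), Cd74 at 7848 CPM, Il1b at 1606 CPM and Spp1 at 1515 CPM, on 55430 UMIs in all. Their Acta2 level was 5033 CPM against 275 CPM, and Folr2 had 0 UMIs. The 2 cells of SHF baseline had H2-Aa at 10078 CPM (8790 to 11502), Cd74 at 22860 CPM (20897 to 24956), Il1b at 779 CPM and 0 UMIs of Spp1, on 21829 UMIs in all. With so few cells these libraries give values only and no comparison. Between 29 and 34 barcodes were shared by each pair of libraries, and 1 Ccr2-positive cell shared its barcode with each SHF library.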

How the data were processed

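The authors deposited raw UMI counts per gene and barcode for each library. The submitters' processing notes name fastp, STAR 2.5, HTSeq 0.6.1 and the build mm10, without their roles. The gene annotation is not given in the sources used here. The CNC AngII and SHF AngII tables list 32285 genes each, and that of SHF baseline lists 18760. A gene's UMIs in a group were divided by the group's total UMIs (CPM), and ratios are log2((CPM + 1)/(CPM + 1)) for genes with a mean of at least 20 CPM. Intervals are exact Poisson, conditional binomial (ratios) and exact Clopper-Pearson (shares) at 95%. Coverage was checked for the ratio intervals only, on sums simulated with Poisson counting error, which is the error they assume. That check does not cover the spread between cells. Scrublet in scanpy 1.11.5 marked 279 doublets among 10670 cells (2.61%), which were kept in the main values. Shares across depths were taken after thinning to 3000 UMIs per cell. Sub-clusters came from Leiden clustering of the 297 cells (2000 variable genes without mitochondrial, ribosomal protein and proliferation-list genes, 20 components, 15 neighbours, resolution 0.5).

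Genes named are the 15 highest and 15 lowest ratios over the other macrophages, and the 8 highest and 8 lowest over the cells with neither transcript, with a mean of at least 50 CPM detected in 10% or more of the cells of the higher group. Gate, mitochondrial, ribosomal protein and stromal marker genes were left out. The 5 leading genes of each sub-cluster by the same minimums and genes of the lists are also named, and not every gene selected is printed. The cells and the gene lists were chosen with earlier results of these data known. Exon overlaps were read from GENCODE M21. The choice of strand in counting is not given in the sources used here. Genes with near-identical copies, such as Bcl2a1d, H2-DMb1 and H2-DMb2, can share reads. Ribosomal protein genes held 21.7% of the UMIs of the Ccr2-positive cells and 16.3% of those of the other macrophages, and totals without these and mitochondrial genes were tried as an alternative, as were the TMM factors of edgeR 4.0.16.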

Additional observations from a re-analysis of the deposited data

How the results depend on the processing

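The 297 cells became 257 with at least 2 Ccr2 UMIs required (14.5% of the gated macrophages) and 254 with Myh11 at 0. The 190 genes at least 2-fold higher became 64 at a mean of at least 100 CPM, 584 at a mean of at least 1 CPM and 68 against the cells with neither transcript. The 280 lower genes became 81, 867 and 137 under the same settings, and 185 with 10 CPM added instead of 1. The classical monocyte list had a median of -1.50 instead of 1.50 at a mean of at least 100 CPM. Only F13a1 of its genes outside the gate remains there, so this value is the ratio of that gene alone. Over 17 alternatives, 33 named genes gave 561 values, of which 164 moved beyond their counting interval and 0 changed sign. The settings of a mean of at least 100 CPM and at least 1 CPM leave a gene's ratio unchanged by construction. The genes were also named for the highest or lowest ratios of these data, so the count of 0 is no independent check. For 24 medians (the lists and all genes) 76 of 407 values moved, and 31 values of 12 medians changed sign, 30 of them where the main median was within 2-fold. Against the cells with neither transcript these included the chemokine ligands (-0.73), chemokine receptors (-0.31), integrins (-0.12), transcription factors (-0.05) and immediate early genes (-0.02). The G2/M median was -1.53 without sub-cluster 2, whose leading genes are mitotic, and the S phase median -0.03 at a mean of at least 100 CPM. Of these alternatives, leaving out cells with fibroblast UMIs and leaving out sub-cluster 2 were chosen after seeing the data. No paired analysis was possible because each group had 1 library. Between-animal spread cannot be estimated from these data, so no ratio has a replicate check. Genes with few UMIs, such as Cd209f, Vsig4 and Slc40a1, are limited by depth.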

Other observations

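Ribosomal protein genes made up 21.7% of the UMIs of the Ccr2-positive cells, 16.1% of those of the Lyve1-positive cells and 19.1% of those of the cells with neither transcript. The Lyve1-positive cells with a Ccr2 UMI were at 18.1% and those without at 15.8%. Glycolysis genes were mostly slightly higher: 13 of 14 had a log2 ratio above 0, with a median of 0.20, beside 2158 of all 5072 genes. Of them 3 were at least 2-fold higher and 0 lower (3.75% and 5.52% of all genes). Against the cells with neither transcript 13 of 14 were above 0 and 0 at least 2-fold higher, with a median of 0.34. The higher ones included Slc16a3, a lactate transporter, at 39.2 against 11.7 CPM in the other macrophages, and Hif1a, the hypoxia-inducible factor, at 103 against 45.2 CPM. Ldha, lactate dehydrogenase A, was at 429 and 409 CPM. Within the Ccr2-positive cells, Ear2, an eosinophil-associated ribonuclease also found in monocytes, was at 156 CPM in sub-cluster 3 and 71.8 CPM in sub-cluster 1, against 7.32 and 7.52 CPM in sub-clusters 2 and 4. Retnla was at 437 and 391 CPM in sub-clusters 1 and 3, and at 7.32 CPM in sub-cluster 2.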
